A study of Mus musculus with 2 samples.

Results

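This account covers 10 genes of antigen presentation by the major histocompatibility complex (MHC), found by symbol among the 28592 genes of the expression table. They are B2m, H2-K1, H2-D1, Tap1, Tap2, Tapbp, Erap1 and Nlrc5 of the class I pathway, with Ciita and Cd74, the class II counterparts. All 10 had a row, and the rule that picks them uses their symbols alone. The RNA came from E14TG2a, an established male line of mouse embryonic stem (ES) cells, kept in 2i/LIF, a medium with inhibitors of MEK and GSK3 and with leukaemia inhibitory factor that holds cells in the naive ground state. The series has 1 group of 2 replicates, with no untreated, interferon-treated or differentiated cells to compare. Values are FPKM (fragments counted per kilobase of a transcript's length and scaled for library size), which are per length, so the levels of different genes can be set side by side. Detection here means that neither replicate was under 1 FPKM. No test is possible within 1 group. Nothing in the labels tells if the replicates came from separate cultures, so the SDs may describe technical spread only.

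Class I molecules show peptides from inside the cell to CD8 T cells. The proteasome cuts proteins into peptides, the TAP transporter moves them into the endoplasmic reticulum (ER), ER aminopeptidases trim them, and the loading complex places them on a heavy chain paired with beta-2-microglobulin. Interferon and the activator NLRC5 raise most of these genes together, while its relative CIITA drives the class II genes in professional antigen-presenting cells. Early embryonic cells are known for little class I on their surface.

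The promoters of both classical heavy chains and of beta-2-microglobulin are shown because they share a pair of short elements at a fixed distance. The sequences are RefSeq's for GRCm38.p6, each reading 5′ to 3′ on the strand of its gene and ending 1 base before an annotated start. Capitals mark TGACG, the core of the X2 box, and ATTGG, the inverted CCAAT core of the Y box, where they stand 20 bases apart. B2m lies at chr2:122147507-122147686 on the plus strand, H2-K1 at chr17:34000334-34000513 on the minus strand, and H2-D1 at chr17:35262914-35263093 on the plus strand.
B2m: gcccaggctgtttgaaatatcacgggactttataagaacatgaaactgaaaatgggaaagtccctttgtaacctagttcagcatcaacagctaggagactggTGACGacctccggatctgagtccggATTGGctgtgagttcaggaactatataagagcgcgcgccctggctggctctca
H2-K1: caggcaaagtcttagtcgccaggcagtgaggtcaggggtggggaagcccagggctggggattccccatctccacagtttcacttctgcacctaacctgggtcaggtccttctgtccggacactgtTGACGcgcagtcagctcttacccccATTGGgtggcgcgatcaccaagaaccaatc
H2-D1: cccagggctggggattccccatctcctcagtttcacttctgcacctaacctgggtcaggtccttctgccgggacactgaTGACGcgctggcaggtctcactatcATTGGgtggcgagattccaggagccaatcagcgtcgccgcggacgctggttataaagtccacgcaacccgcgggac

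In each of these stretches exactly 20 bases separate the capitalised elements. The pair begins 78 bases before the start of B2m, 55 before the start used here for H2-K1 and 101 before that of H2-D1. Another annotated start of H2-K1, at 34000347, has the pair 41 bases before it. The RefSeq span of H2-K1 reaches 34000619, so the stretch shown lies within it. Searched on both strands from 250 bases before to 50 after the start, the pair with this spacing occurred in 27 of 27025 genes (0.0999%). TGACG alone occurred in 23.05% of genes and ATTGG alone in 41.1%. Aligned on the pair without gaps, the stretches of H2-K1 and H2-D1 were identical at 110 of 134 bases (82.1%). The letters were chosen after these sequences had been read, and a match is no evidence that a factor binds.

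The light chain, both classical heavy chains and tapasin were detected, and the transporters, the trimming enzyme, both activators and the class II chain Cd74 were not. The detected genes were Tapbp, B2m, H2-K1 and H2-D1, 4 of 10. This share was near the 39.4% of all rows in the table, which include non-coding genes. It was below the 50.6% of the 20330 protein-coding genes. The median of the members' mean FPKM was 0.721 ± 0.114 (SD of the medians of the replicates, n = 2). That of all rows was 0.233, and that of the protein-coding genes was 1.22. No member was listed at 0 in either replicate.

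**Figure D1:**
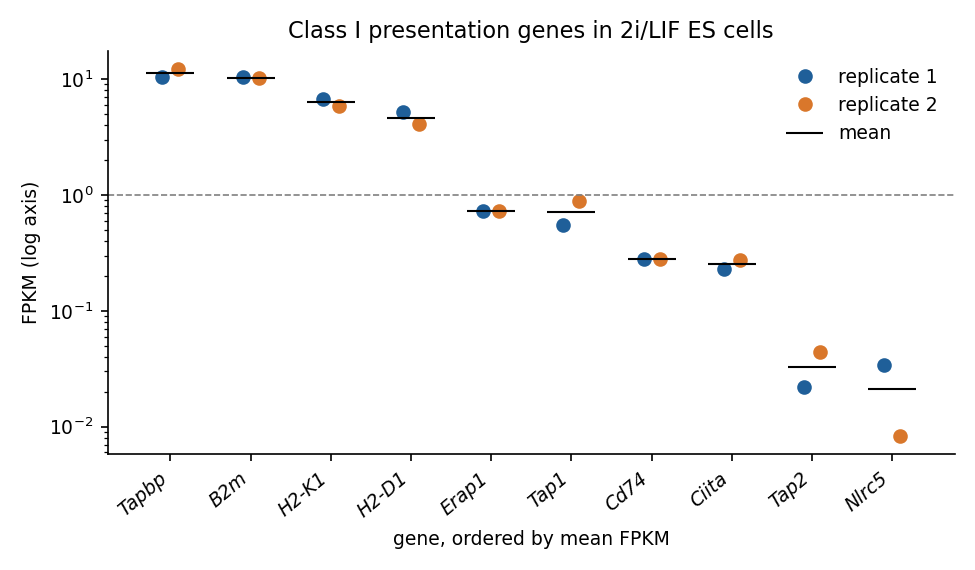
FPKM on a log axis for each of the 10 genes, with 1 point per replicate and a bar at the mean; the dashed line is the detection limit of 1. Tapbp, B2m, H2-K1 and H2-D1 lie above the line in both replicates, and the other 6 lie below it, down to Nlrc5 at a mean of 0.0213.

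The light chain gene B2m (ENSMUSG00000060802.8, chromosome 2, 122147687 to 122153082), whose product every classical class I molecule needs, stood at 10.4 in replicate 1 and 10.2 in replicate 2, a mean of 10.3 ± 0.128 (SD, n = 2). Of all rows 78.1% had a lower mean. The replicates were nearly equal. The span of B2m lies within that of Patl2, a protein-coding gene listed at 14.1 and 12.3. Nothing states that reads were counted by strand, so some reads of 1 gene may have been given to the other.

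The classical heavy chains bind the peptide and are read by the T cell receptor. H2-K1 (ENSMUSG00000061232.14, chromosome 17, 33996012 to 34000619) was at 6.69 and 5.89 in replicates 1 and 2, a mean of 6.29 ± 0.563. H2-D1 (ENSMUSG00000073411.10, chromosome 17, 35263094 to 35267497) was at 5.23 and 4.07, a mean of 4.65 ± 0.824. H2-K1 was higher than H2-D1 in both replicates, by 1.28 and 1.45 times, and their ranges did not overlap. The gap between the ranges, 0.662, was smaller than the 1.16 by which the replicates of H2-D1 differed, so their order is not clear of the replicate spread. Class I heavy chains are near-identical copies in long stretches, and how the authors' counting divided reads among them is not known. The genome build, and the promoters shown above, are those of C57BL/6J, which is not the strain of E14TG2a, and the effect of differences between alleles on these levels was not tested. The sum of H2-K1 and H2-D1 was 11.9 and 9.96. B2m stood at 0.872 times that sum in replicate 1 and 1.03 times in replicate 2, so light chain RNA and the sum of classical heavy chain RNA were at about the same level per length.

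Other heavy chain genes and relatives of the class I fold were mostly lower. Of 21 matched genes 5 were detected (23.8%, against 39.4% of all rows) and 5 were listed at 0 in both replicates. The median was 0.158 ± 0.0161 (SD of the replicate medians). H2-M5 (chromosome 17, 36983785 to 36997955), a non-classical heavy chain gene, was the highest at 19.4 and 20.6. It exceeded H2-K1 by 2.90 and 3.49 times in replicates 1 and 2, with ranges that did not overlap. Cd1d1, which presents lipids to NKT cells, followed at 7.84 and 9.14. The non-classical gene H2-T22 was at 4.79 and 4.98, and Fcgrt, the neonatal Fc receptor chain that also pairs with beta-2-microglobulin, at 5.28 and 4.36. H2-T22 and Fcgrt thus lay at the level of H2-D1. H2-Q4 lay at the limit, at 0.975 and 1.12, while H2-T3 and H2-M2 were among those listed at 0.

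The transporter genes were both below the limit and far apart in level. TAP1 and TAP2 form a heterodimer, so both are needed for transport. Tap1 (ENSMUSG00000037321.16, chromosome 17, 34187556 to 34197225) was at 0.552 and 0.882, a mean of 0.717 ± 0.234. Tap2 (ENSMUSG00000024339.11, chromosome 17, 34204479 to 34216321) was at 0.0221 and 0.0440, a mean of 0.0331 ± 0.0155. Tap1 exceeded Tap2 by 25.0 times in replicate 1 and 20.03 times in replicate 2, and the ranges were far apart. The values of Tap2 are in a ratio of 2.00, such as 1 fragment against 2 would give, so its level may rest on very few reads.

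Tap1 starts head to head with Psmb9, an immunoproteasome subunit gene, and the 225 bases between their annotated starts are shown because both genes are transcribed away from them. The stretch is chr17:34187331-34187555, given on the plus strand, which is that of Tap1. Capitals mark TGACG and CCAAT, the latter being ATTGG on the strand of Psmb9.
Tap1-Psmb9: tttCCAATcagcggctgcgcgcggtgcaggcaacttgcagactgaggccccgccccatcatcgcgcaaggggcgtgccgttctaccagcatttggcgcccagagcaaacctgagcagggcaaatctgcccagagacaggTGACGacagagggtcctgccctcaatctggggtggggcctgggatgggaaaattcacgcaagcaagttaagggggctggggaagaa

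Neither gene holds the pair at the 20-base spacing in its window, and each element occurs here once. The level of Tap1 was 2.41 and 3.84 times that of Psmb9, which stood at 0.229 and 0.230. The block on chromosome 17 goes on with Psmb8 (34198195 to 34201454), at 0.0183 and 0.0429, and Tap2. All 4 genes of this block were below the detection limit in both replicates, and Tap1 was the highest of them.

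Tapasin, the product of Tapbp (ENSMUSG00000024308.13, chromosome 17, 33919478 to 33929290), bridges TAP to the empty heavy chain and selects stable peptides. Tapbp was the highest of the 10, at 10.4 and 12.2, a mean of 11.3 ± 1.25. It stood above B2m in the order, and the ranges were 0.0511 apart, against 1.77 between the replicates of Tapbp, so this pair did not differ beyond its spread. Tapbp exceeded Tap1 by 18.9 and 13.8 times. Its relative Tapbpl, which edits peptides outside the loading complex, was at 0.545 and 0.508, below the limit. The lncRNA Gm19412 overlaps the span of Tapbp and was listed at 1.86 and 2.42.

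The general folding factors of the ER were far above the dedicated class I parts. Of 14 genes for peptide loading and ER folding 13 were detected (92.9%, against 39.4% of all rows), with a median of 71.5 ± 3.95. The translocon genes Sec61g (556 and 580) and Sec61b (454 and 409), the lectin chaperone gene Canx (402 and 413) and the chaperone gene Hspa5 (356 and 336) led them, and Uggt1, the glucosyltransferase of glycoprotein quality control, was the lowest detected at 40.2 and 41.4. The remaining partners of the loading complex, named here after their values were seen, were Calr (calreticulin) at 234 and 232 and Pdia3 (ERp57) at 56.0 and 55.0. Calr exceeded Tapbp by 22.4 and 19.0 times.

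Erap1 (ENSMUSG00000021583.6, chromosome 13, 74639573 to 74693205), the ER aminopeptidase that trims peptides to class I length, was at 0.730 and 0.721, a mean of 0.725 ± 0.00598. It was below the limit in both replicates, and its range lay inside that of Tap1. The end of its span overlaps Cast, a coding gene at 13.2 and 14.4. All 8 matched peptidases of the cytosol and of endosomes were detected, against 39.4% of all rows, with a median of 36.3 ± 0.0798. Lap3, the leucine aminopeptidase, was at 527 and 533, the bleomycin hydrolase gene Blmh at 80.7 and 83.0, Tpp2 at 38.4 and 38.1 and the insulin-degrading enzyme gene Ide at 37.6 and 37.4. The lowest were Npepps, at 19.2 and 22.9, and Lnpep, the endosomal relative of Erap1, at 12.8 and 13.8, which is far above Erap1.

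**Figure D2:**
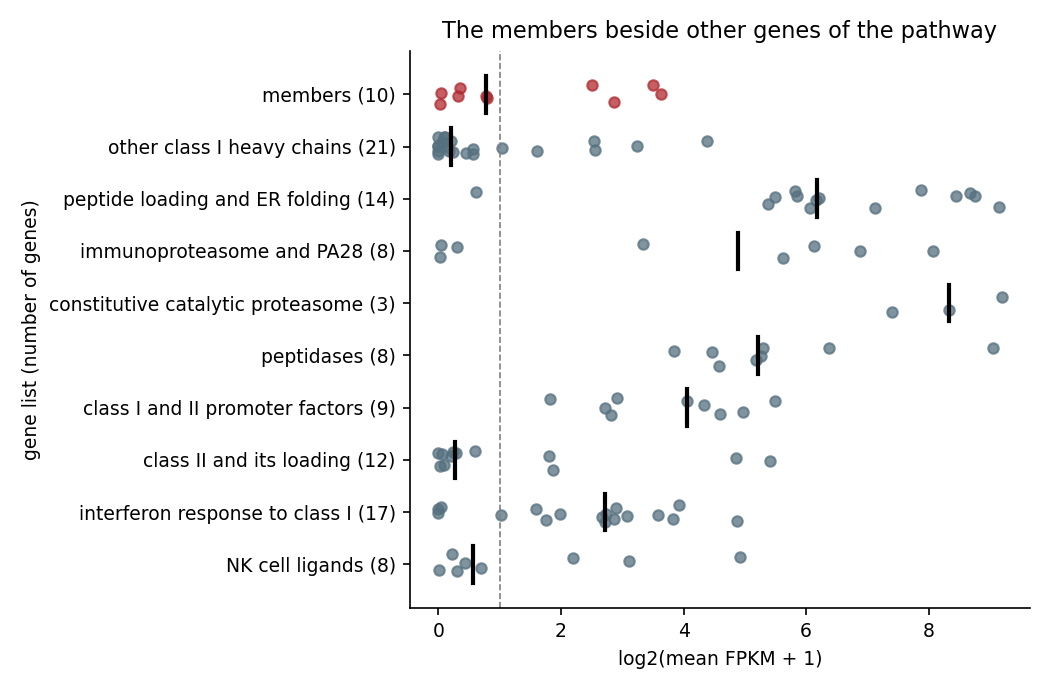
Mean FPKM over the replicates as log2(mean FPKM + 1), with 1 point per gene for the 10 members and for 9 further lists of the pathway; black bars are list medians and the dashed line is a mean FPKM of 1. The members spread from near 0 to the level of Tapbp, while ER folding genes, constitutive proteasome subunits and peptidases lie mostly to the right of them.

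The proteasome that supplies the peptides was represented mainly by its constitutive form. Each catalytic subunit has an interferon-inducible replacement in the immunoproteasome. Psmb5 was at 171 and 164, against 0.0183 and 0.0429 for its counterpart Psmb8. Psmb6 was at 607 and 559, against 0.229 and 0.230 for Psmb9, a ratio of 2657 and 2430. Psmb7 was at 321 and 323, against 9.12 and 9.19 for Psmb10, a ratio of 35.2 in each replicate. Psmb10 was thus the one replacement subunit detected, and it lies on chromosome 8, outside the MHC. The PA28 activator genes Psme1 (68.0 and 69.3) and Psme2 (121 and 111), also known to respond to interferon, were well above the limit, as were the nuclear activator gene Psme3 (46.7 and 49.5) and the assembly factor gene Pomp (272 and 260). Psmb11, the thymic subunit gene, was at 0.0193 and 0.00641. In all 5 of 8 genes of the immunoproteasome and PA28 list were detected (62.5%, against 39.4% of all rows).

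**Figure D3:**
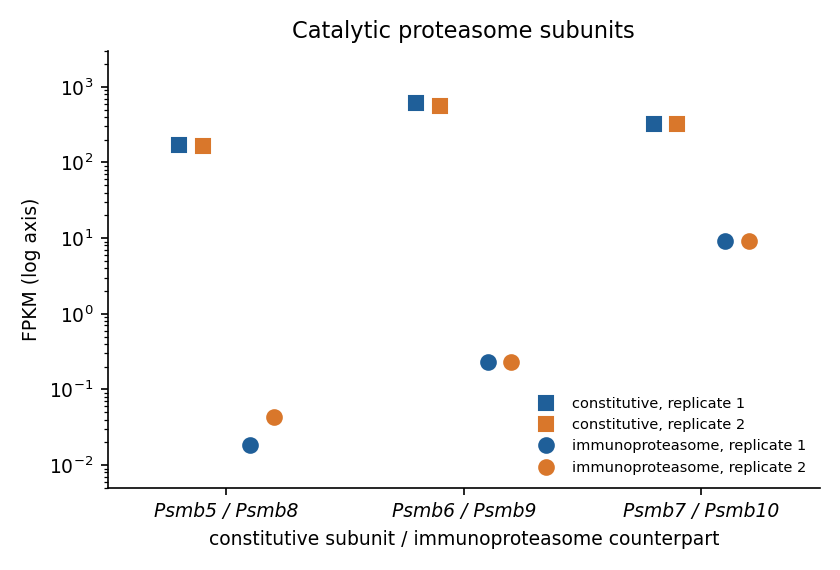
FPKM on a log axis for the 3 constitutive catalytic subunits (squares) and their immunoproteasome counterparts (circles), with 1 symbol per replicate. Psmb10 is the only counterpart near 10, and Psmb8 and Psmb9 lie below 1.

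Of the activators, Nlrc5 (ENSMUSG00000074151.11, chromosome 8, 94434335 to 94527272), the transactivator of class I genes, was the lowest of the 10, at 0.0342 and 0.00831, a mean of 0.0213 ± 0.0183. Its range overlapped that of Tap2, so the last places of the order cannot be told apart. Ciita (ENSMUSG00000022504.9, chromosome 16, 10480014 to 10531064), the class II transactivator, was at 0.231 and 0.277, a mean of 0.254 ± 0.0322. The ranges of Ciita and Nlrc5 did not overlap, although both were below detection. The end of the span of Ciita overlaps Dexi, a coding gene at 3.61 and 3.06, so part of its low level is uncertain.

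NLRC5 and CIITA bind no DNA and act through factors already seated on the X and Y boxes. All 9 genes for such factors were detected, against 39.4% of all rows, with a median of 15.6 ± 1.15. The CCAAT-binding subunits Nfyb (44.0 and 44.3) and Nfyc (31.0 and 29.6) led, followed by Atf1 (24.1 and 22.4) and Creb1 (18.3 and 20.01), which bind cyclic AMP elements. The X-box factor genes Rfx5 (5.69 and 5.41) and Rfxank (2.60 and 2.44) were the lowest. A further X-box factor gene, Rfxap, named after its value was seen, was at 14.8 and 16.4. The span of Rfxank holds that of the coding gene Nr2c2ap, listed at 10.5 and 10.9. Rfx5 exceeded Nlrc5 by 166 times in replicate 1 and 651 times in replicate 2, a spread that comes from the replicates of Nlrc5, which differ by 4.12 times.

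Genes of the interferon pathway that acts on class I were mostly detected. Of 17 genes 13 were detected (76.5%, against 39.4% of all rows), with a median of 5.57 ± 0.106. Irf1, a transcription factor that binds class I promoters, was the highest at 28.2 in each replicate, followed by the receptor chain Ifnar1 (14.5 and 13.8), the NF-kB subunit gene Relb (13.8 and 12.7) and Irf9 (10.7 and 11.4). The feedback inhibitor gene Socs1 lay at the limit, at 1.18 and 0.898. Ifng, the ligand, and Irf2 were listed at 0 in both replicates. A listed 0 may also be an estimate that failed.

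Cd74 (ENSMUSG00000024610.13, chromosome 18, 60803849 to 60812652) encodes the invariant chain that guides class II molecules. It was at 0.283 in both replicates, below the limit. Cd74 stood just above Ciita, 0.00571 beyond its range, against 0.0456 between the replicates of Ciita. The 12 matched genes of class II and its loading had a median of 0.202, and of 0.263 and 0.223 in replicates 1 and 2. Of the 12 genes 4 were detected (33.3%, against 39.4% of all rows). These were the lysosomal thiol reductase gene Ifi30 (41.6 and 41.5) and the protease gene Lgmn (29.0 and 27.1), both of which also work outside antigen presentation, the beta chain gene H2-Eb1 (2.95 and 2.37) and H2-DMb1 (2.56 and 2.39). H2-DMa was at 0.536 and 0.475, H2-Ob was listed at 0, and H2-Eb2 was at 0 in replicate 1 and 0.0389 in replicate 2. The span of H2-DMa overlaps that of Brd2, a coding gene at 57.2 and 56.7, so the level of H2-DMa is uncertain.

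The replicates were then compared gene by gene as log2 ratios of FPKM + 1, a scale that understates the change of low genes. None of the 10 genes differed by more than 1.5-fold, as did 0.686% of all rows. On that scale 4 of 10 were higher in replicate 2, 5 were lower and Cd74 was equal to within 0.001, against 50.4% of rows above 0 that were higher. H2-D1 (-0.30) and H2-K1 (-0.16) were lower in replicate 2, and Tap1 (0.28) and Tapbp (0.21) were higher. Without a pseudocount Tap1 differed by 0.68 in log2, within the 0.95 that covered 90% of the 1323 rows with a mean FPKM of 0.5 to 1. Over the 4465 rows with a mean FPKM of 4 to 20, 90% differed by less than 0.28 in size. B2m (0.025), H2-K1 (0.18) and Tapbp (0.23) lay within that spread, and H2-D1 (0.36) lay outside it.

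All 10 embryonic stem cell markers were detected, against 39.4% of all rows, and were led by Dppa5a (7123 and 6972) and Pou5f1 (1005 and 947). Of the 10, 9 were higher in replicate 1, against 9675 of the 20583 rows above 0, with sums of 9178 and 8934. The FPKM of all rows was also higher in replicate 1, summing to 946498 and 928174. Of 18 fibroblast markers none was detected, against 39.4% of all rows. Of the 18, 15 were higher in replicate 2, against 50.4% of rows above 0. Their summed FPKM was 1.61 in replicate 1 and 6.35 in replicate 2. S100a4 (0 and 1.17) and Col1a2 (0.0101 and 0.917) had the highest means. S100a4, Acta2, Dcn, Postn and Prrx1, 5 of 18 genes, were at 0 in replicate 1 only, and Lum was at 0 in replicate 2. Over all rows 5.75% were at 0 in replicate 1 only. That share also counts 8009 rows at 0 in both replicates and 11253 detected rows. No fibroblast marker was of either kind, so the shares are not of like sets. Of 12 leukocyte markers 2 were detected (16.7%, against 39.4% of all rows), Laptm5 (10.3 and 11.01) and Coro1a (2.52 and 1.98). Of the 9 markers above 0, 6 were higher in replicate 2. The sum of the 12 was 13.5 and 21.3, and 13.5 and 14.4 without the lysozyme gene Lyz2 (0 and 6.94), left out after the values were seen. Lyz2 had the second highest mean, Adgre1 was at 0 in replicate 1 only, and Cd79a and Itgax were among the markers at 0 in both. Fibroblasts and leukocytes express class I genes, and their part in the levels above was not tested. The measured levels of H2-K1, H2-D1 and Nlrc5 were lower in replicate 2, the library with the higher fibroblast and leukocyte sums. Those of Tap1, Tap2, Tapbp and Ciita were higher there. B2m and Erap1 were nearly equal and Cd74 was equal, while the total FPKM was lower in replicate 2.

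**Figure D4:**
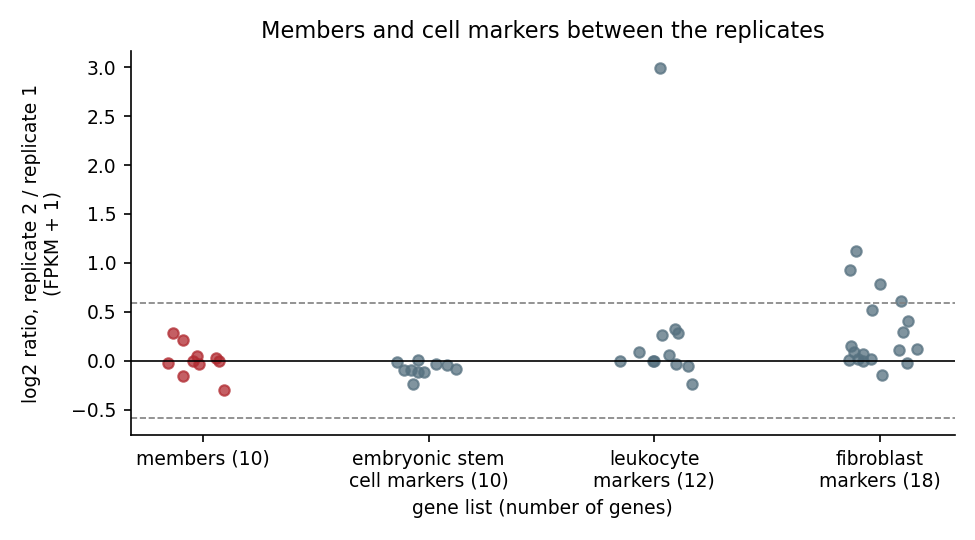
Log2 ratio between the replicates (replicate 2 over replicate 1, FPKM + 1), with 1 point per gene for the 10 members and 3 marker lists; dashed lines mark 1.5-fold. The members lie on both sides of 0 within the lines, and 4 fibroblast markers and 1 leukocyte marker, Lyz2, lie above the upper line.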

How the data were processed

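RNA-seq of ribosome-depleted total RNA from 2 replicates of 1 group was used. The authors deposited FPKM per gene and replicate, made with CASAVA, TopHat2 and Cufflinks on mm10/GRCm38, per the submitters' processing notes. Not given in the sources used here are versions, annotation release, use of strand and any scaling of the libraries. Columns were assigned by the samples' descriptions. Symbols were matched by stable identifier for 28256 rows, and 100 of 113 further pathway genes matched by exact symbol. Gene spans and promoters came from RefSeq on GRCm38.p6, and 6 of 10 members had a promoter window, Tap2, Nlrc5, Ciita and Cd74 having none in the table.

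FPKM summed to 946498 and 928174. The number of reads is unknown. Of 2288 rows under a mean of 0.1, 66.8% had replicates in a ratio of whole numbers up to 8 (to within 0.01 in log2), and a fragment was worth 1.00 times as much in replicate 2. No count model, interval or test was used. Summaries were computed with Python 3.11.15 and pandas 2.3.3. The 1.5-fold rule was checked on simulated data, with changes only in genes well above the detection limit. The simulated noise was smaller than the spread between the real replicates, so the check cannot tell how often noise passes the rule here. The count of detected genes was set against the same formula on those data, so its match was fixed in advance. The other summaries were not checked so. All 10 members were named, and of each further list the 4 highest and 2 lowest genes, the proteasome genes and those at a mean FPKM of 0.5 to 2, and of each marker list the 2 highest and those at 0 (1 such marker is not reported here). Members and lists were chosen with earlier results of these data known.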

Additional observations from a re-analysis of the deposited data

How the results depend on the processing

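With a detection limit of 0.1 FPKM 8 of the 10 genes were detected, in place of 4, and limits of 0.5 and 5 gave 6 and 3. Among the 8 genes whose mean FPKM reached 0.1 the median was 2.69, since the filter drops Tap2 and Nlrc5. With pseudocounts of 0.1 and 0.01, 1 gene (Tap1) and 3 genes (Tap1, Tap2 and Nlrc5) differed between the replicates by over 1.5-fold, in place of 0. From a single replicate the median ranged from 0.641 to 0.802, 4 genes were detected either way, and 8 kept their place in the order. Rescaling to TPM changed neither the order nor that count. Without B2m, Erap1 and Ciita, whose spans overlap another coding gene (chosen after the data were seen), 3 of 7 were detected, with a median of 0.717. No paired analysis was possible because there is 1 group. Levels below about 0.1 FPKM may rest on few reads, and the order of Tap2 and Nlrc5 is not resolved.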

Other observations

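Cells low in class I can be recognised by natural killer (NK) cells, and genes for ligands of NK cell receptors were examined. Of 8 matched genes 3 were detected (37.5%, near the 39.4% of all rows). The median of the 8 was 0.481 ± 0.0251 (SD of the replicate medians). Nectin2 (31.0 and 27.5 in replicates 1 and 2) and Pvr (7.44 and 7.90), adhesion proteins bound by DNAM-1, were the highest. The NKG2D ligand gene Ulbp1 was at 3.64 and 3.56, close to the level of H2-D1. Raet1e (0.575 and 0.645), H60b (0.0893 and 0.253) and H60c (0 and 0.0199) were below the limit. Members of the Raet1 family are near-identical copies, so their levels are uncertain. Raet1a, Raet1b, Raet1c, H60a and Ulbp3 had no row under these symbols, so the list leaves out 5 of 13 chosen ligand genes.

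Tap1, Tap2, Psmb8 and Psmb9, all below the limit, lie in an interval of the MHC whose share of detected genes was near that of all coding genes. From H2-K1 to H2-D1 (chromosome 17, 33996012 to 35267497) the table held 82 protein-coding genes by RefSeq, of which 43 were detected (52.4%), against 50.6% of all 20330 coding genes. Their median FPKM was 1.92, against 1.22. The highest of them, named after their values were seen, were Ddx39b (148 and 144) and Ddah2 (117 and 106).

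Of the genes whose promoter window held TGACG and ATTGG 20 bases apart, 23 had a row in the table under the same symbol. Of these 16 were detected (69.6%), against 45.8% of 18824 genes with a window. The pair was read off the promoters of B2m, H2-K1 and H2-D1, and without these 13 of 20 were detected, with a median of 8.37 FPKM, against 0.585 over all genes with a window. The levels ranged from Hnrnpf (1049 and 1068) to Ibsp, listed at 0. The non-classical heavy chain gene H2-M3, which also holds the pair, was at 0.106 and 0.148.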
